A study of Danio rerio with 24 samples.

Results

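Kinesins are motor proteins that use ATP to move along microtubules or to change the length of microtubules. Mitotic kinesins build the spindle, move chromosomes and complete cell division, and their transcripts are known to accumulate in dividing cells. Transport kinesins carry vesicles, organelles and messenger ribonucleoproteins, and in zebrafish maternal kinesin-1 is known to act with Bucky ball in gathering germ plasm, the cytoplasm that primordial germ cells (PGCs) inherit. The kinesins described here are the 42 rows, of 32520 genes in the deposited tables, whose gene name begins with kif and a digit. They comprised 11 mitotic members, 21 transport members, 4 members linked to cilia and signalling, and 6 others.

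PGCs give rise to eggs and sperm. They were isolated by flow sorting of transgenic zebrafish embryos, in which they fluoresce, kept in Holtfreter's water until 75% epiboly (gastrulation) or 1 day after fertilization (1 dpf). In the first experiment, 3 libraries per stage came from wild-type control embryos and 3 from embryos with a germline-specific smad1 knockout (smad1-cKO, here cKO). In the second, 2 libraries per stage came from wild-type embryos injected with a control morpholino and 2 from wild-type embryos injected with a smad1 morpholino (smad1-KD, here KD), which acts in the whole embryo. The study asks how BMP signalling through Smad1 bears on PGC proliferation. Values are in TPM, a transcript abundance that is scaled for transcript length and library total and so can be compared between genes. Every difference below is on the log2(TPM + 1) scale, which understates changes of genes near 0.

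The depth of the 20 libraries is unknown because TPM keep no read counts, and 13371 to 24547 genes per library were above 0. Between 25 and 42 of the kinesin rows were above 0 in a library. The smad1 transcript was 134 to 140.0 TPM in control and 11.7 to 16.4 TPM in cKO libraries at 1 dpf, and 193 to 201 TPM in control-morpholino against 70.3 and 170 TPM in KD libraries. A morpholino can block a transcript without lowering its level, so in the KD this level does not check the label. The summed TPM of 8 germ-cell markers was 14703 to 19051 in control and 13076 to 20241 in cKO libraries at 1 dpf, but 1488 and 5172 in control-morpholino and 1026 and 4746 in KD libraries. At 75% epiboly replicate 3 stood apart in the first experiment, with germ-cell marker sums of 4121 in the control and 4765 in the cKO against 10538 to 32531 in the other 4 libraries. No label names separate clutches, and p-values therefore reflect only how much these libraries vary, possibly for technical reasons. In such bulk samples, fewer cells of a type and less RNA per cell cannot be told apart.

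At 75% epiboly, mitotic kinesins made up most of the kinesin transcript. Their summed level was 1062, 983 and 411 TPM in the 3 control libraries, which was 89.4%, 91.1% and 81.5% of all kinesin TPM. The 21 transport rows together reached 94.4, 61.4 and 49.3 TPM in the same libraries. The mitotic sum was thus above the transport sum in all 3 control libraries, and replicate 3 was the lowest for both.

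**Figure D1:**
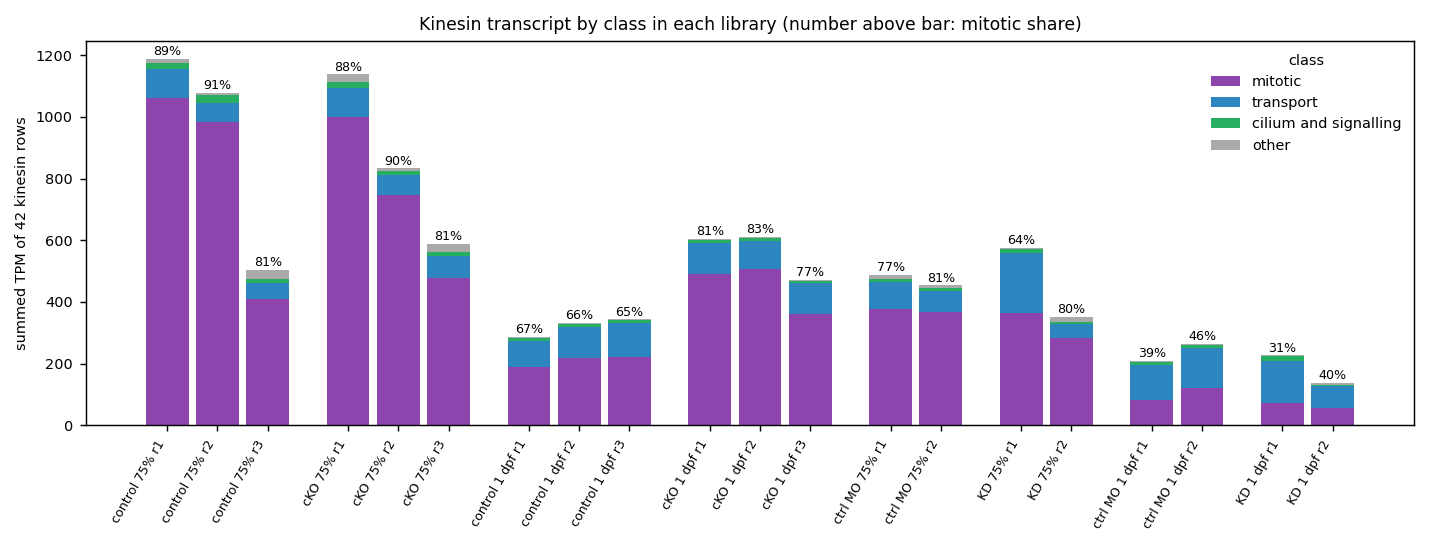
Summed TPM (y axis) of the 42 kinesin rows in each of the 20 libraries (x axis, r for replicate), stacked by class, with the mitotic share in percent above each bar. At 1 dpf the mitotic sum was 191 to 222 TPM in control and 362 to 507 TPM in cKO libraries, while the transport sum was 83.8 to 108 and 90.2 to 101 TPM.

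Among single genes the chromokinesin kif22, which binds chromosome arms and pushes them toward the spindle equator, was the most abundant kinesin in each control library at 75% epiboly. Its level there was 324, 337 and 165 TPM. Next came kif23, the motor subunit of centralspindlin at the central spindle, at 225, 189 and 66.2 TPM. The kinesin kif20a, which carries the chromosomal passenger complex to the central spindle, measured 198, 174 and 59.0 TPM. The spindle motor kif11 (Eg5), which pushes the spindle poles apart, stood at 133, 94.5 and 35.9 TPM. In each of these 4 genes replicate 3 lay well below the other control libraries. The least abundant mitotic member was kif14, a motor of the midbody, at 3.61, 3.14 and 0.816 TPM.

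Transport members were lower and led by 3 genes. The row of kif5ba, a kinesin-1 heavy chain, with the identifier ENSDARG00000074131 measured 29.7, 19.6 and 10.8 TPM in control PGCs at 75% epiboly. A second row of the same name (ENSDARG00000103394) measured 2.94, 0 and 0.314 TPM, and reads of the pair may be split between them. The heterotrimeric kinesin-2 motor subunits, which carry cargo in cilia and along axons, were at 22.6, 15.8 and 7.79 TPM for kif3b and 15.6, 14.2 and 5.72 TPM for kif3a. Replicate 3 was again the lowest for these 3 leading rows.

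By 1 dpf all 11 mitotic kinesins were lower in control PGCs, where 29.9% of all genes tested were, and 8 fell past the threshold. The control libraries were compared between stages with limma over all genes, where a difference passed at a Benjamini-Hochberg adjusted p under 0.05. Lower calls made up 11.1% of all genes tested, and higher calls 42.8%. The median mitotic difference was -2.04, whereas the median of all genes tested was 0.99. The stages came from separate tables, in which every library has nearly the same total TPM, so stage and table cannot be told apart, and a level is relative to the rest of its own library.

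The largest fall among kinesins was in kif23, which was 3.48, 7.11 and 6.67 TPM at 1 dpf against 225, 189 and 66.2 TPM earlier. Its log2 difference was -4.45 (SE 0.52, adjusted p = 4.18e-04). The stages did not overlap, and the highest library at 1 dpf lay far below the lowest at 75% epiboly. The spindle motor kif11 went to 4.47, 9.20 and 6.41 TPM, a log2 difference of -3.39 (SE 0.53, adjusted p = 0.0014). The kif20bb row, of the family that acts late in cytokinesis, was 67.5, 90.7 and 22.5 TPM at 75% epiboly and 5.91, 2.96 and 3.37 TPM at 1 dpf, a log2 difference of -3.42 (SE 0.55, adjusted p = 0.00166). None of these 3 genes overlapped between stages.

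The other 5 mitotic genes that fell had log2 differences from -2.43 (kif4 and kif20a) to -1.62 (kif2c, the depolymerase MCAK that corrects kinetochore attachments), with kif18a, a motor of chromosome congression, at -2.04 and kif15, a spindle motor that can back up Eg5, at -1.78. Leaving out control replicate 2 or 3 at 1 dpf ended the calls of kif15 and kif2c. In contrast, kif22 was 134, 149 and 159 TPM at 1 dpf, and its log2 difference of -0.83 (SE 0.31) had an adjusted p of 0.0544. It did not overlap between stages, and its call depended on scaling: it passed under quantile normalization, TMM-style scaling, rescaling without abundant features, a minimum mean of 5 TPM, and without control replicate 3 at 75% epiboly. The share of kif22 in the mitotic sum was 30.5%, 34.3% and 40.0% at 75% epiboly and 70.4%, 67.8% and 71.6% at 1 dpf. For kif14 and kif20ba the stages overlapped, with log2 differences of -0.78 and -0.86, and both passed under quantile normalization and without control replicate 3 at 75% epiboly. With a mean of 0.923 TPM at 1 dpf, kif14 passed the filter only through its 75% epiboly level.

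Transport kinesins had a smaller median difference between stages. Of the 21 rows, 16 were higher at 1 dpf and 4 lower, with a median of 0.39, where 70.1% of all genes tested were higher. That direction depended on scaling. Under quantile normalization 7 were higher and 13 lower, with a median of -0.11. The transport rows kif16ba and kif21b then passed as lower, and the share of all genes that did so is not given. Under TMM-style scaling and under rescaling without abundant features 13 were higher and 7 lower, with medians of 0.15 and 0.27. Under the scaling as deposited 4 of the 12 that were tested rose, where 42.8% of all genes tested did: the lesser kif5ba row (ENSDARG00000103394) by 1.65, the kinesin-2 subunit kif3a by 1.40, the kinesin-1 heavy chain kif5c by 1.35 and the kinesin-3 motor kif16bb by 1.14. None of those 4 passed under quantile normalization or TMM-style scaling or rescaling without abundant features, and kif16bb changed sign under quantile normalization, to -0.11. At 75% epiboly kif5c (0.430, 0 and 0 TPM) and kif16bb (0.219, 1.06 and 0.0469 TPM) were near 0. Both reached the mean of 1 TPM over the 2 stages needed for testing only through their 1 dpf level, which favours a rise. The summed TPM of 8 nervous system markers was 0.467 to 4.88 at 75% epiboly and 147 to 198 at 1 dpf in the same libraries, and their part in the transport levels was not tested. The levels of kif3a were 15.6, 14.2 and 5.72 TPM at 75% epiboly and 19.7, 31.7 and 44.7 TPM at 1 dpf. Leaving out control replicate 3 at 1 dpf brought the count of all kinesins called from 15 to 8, where 42.1% of all genes tested were called, and none of those 4 transport calls was among the 8. The leading kif5ba row was 12.5, 19.5 and 22.2 TPM at 1 dpf, within the range of the earlier stage.

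The mitotic median minus the transport median held its sign under each scaling run. Relative to the median of all genes tested, the mitotic median was -3.03 as deposited, -3.03 under quantile normalization, -2.97 under TMM-style scaling and -3.17 under rescaling. The transport median relative to all genes was -0.60, -0.16, -0.18 and -0.33 in the same order. Thus both class medians lay below the median gene tested in these libraries, the mitotic one by far more. The transport median covers 21 rows of which 12 were tested, while the other median covers only tested genes, so the sets are unlike. In control-morpholino libraries the transport median relative to all genes was -0.18, 0.09, 0.08 and -0.12 in the same order.

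Among the remaining kinesins, kif7, which regulates Hedgehog signalling at the cilium tip, went from 18.9, 24.8 and 13.2 TPM to 3.40, 5.95 and 3.72 TPM and fell by 1.88 (adjusted p = 0.00492). The kif26ab row went from 11.2, 6.56 and 30.9 TPM to 0.339, 0.298 and 0.0401 TPM and fell by 3.56 (adjusted p = 0.00142). Neither gene overlapped between stages, and kif26ab passed the filter only through its 75% epiboly level. The cilium-linked kif6 rose by 1.79 (adjusted p = 0.0253) from 0, 1.20 and 0 TPM to 3.28, 1.57 and 7.30 TPM. Its mean at 75% epiboly was 0.398 TPM, so it passed the filter only through its 1 dpf level. The call of kif6 was lost under quantile normalization, TMM-style scaling, no filter or a minimum of 5 TPM, and with control replicate 1 or 3 of either stage left out. Summed TPM of 6 ciliated-cell markers was 0.324 to 1.97 at 75% epiboly and 31.0 to 49.5 at 1 dpf. Not every marker rose: foxj1a was at 0 in every control library at 1 dpf. At 75% epiboly dnaaf1, rsph9, foxj1b and dnah9 were at 0 in every control library. The part of these markers in the result was not tested.

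The control-morpholino libraries gave the same direction for all 11 mitotic rows, where 28.8% of all genes tested were lower. Their median was -1.40 against a median of 0.86 for all genes tested, and 5 mitotic genes fell, where 7.25% of all genes tested did. These were kif23 (-3.91, adjusted p = 0.00811), kif20bb (-1.86), kif20ba (-1.85), kif11 (-1.67) and kif22 (-1.58). Other scalings called more mitotic genes lower: 11 under quantile normalization, 10 under TMM-style scaling and 9 under rescaling without abundant features. The median of all genes tested was then -0.01, 0.19 and 0.54, and the share of all genes called there is not given. Larger counts are thus not read as a larger mitotic fall. Relative to the median of all genes tested, the mitotic median was -2.26 as deposited and -2.05, -2.24 and -2.44 under those scalings. The levels of kif23 were 84.8 and 93.4 TPM at 75% epiboly and 3.32 and 7.30 TPM at 1 dpf. With either 1 dpf library left out, kif23 was the only kinesin still called, where 0.335% (without replicate 1) and 0.244% (without replicate 2) of all genes tested fell, and the call of kif20ba was also lost without control-morpholino replicate 1 at 75% epiboly. Germ-cell markers summed to 790 and 1011 TPM in control-morpholino libraries at 75% epiboly, below the sums in the control libraries.

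Transport members in the control-morpholino libraries included one large rise. The kinesin-3 motor kif1c was 2.11 and 0 TPM at 75% epiboly and 30.7 and 32.4 TPM at 1 dpf, a log2 difference of 4.21 (adjusted p = 0.011). In the control libraries of the first experiment the same row was 2.19, 2.74 and 10.2 TPM and then 2.26, 6.07 and 0 TPM, a log2 difference of -0.84 (adjusted p = 0.39). The difference between the experiments was not tested. Summed blood markers were 4672 and 15034 TPM in the control-morpholino libraries at 1 dpf but 0.0451 to 4.24 TPM in control libraries, and their part in the kif1c level was not tested. Also higher at 1 dpf were kif21a, kif3a and kif5ba (ENSDARG00000103394), where 33.4% of all genes tested rose, and kif13bb was lower. At 75% epiboly kif21a (0.210 and 0 TPM) and this kif5ba row (0.9997 and 0 TPM) were low, and both passed the filter only through their 1 dpf level. Under quantile normalization kif21a and kif3a did not pass.

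**Figure D2:**
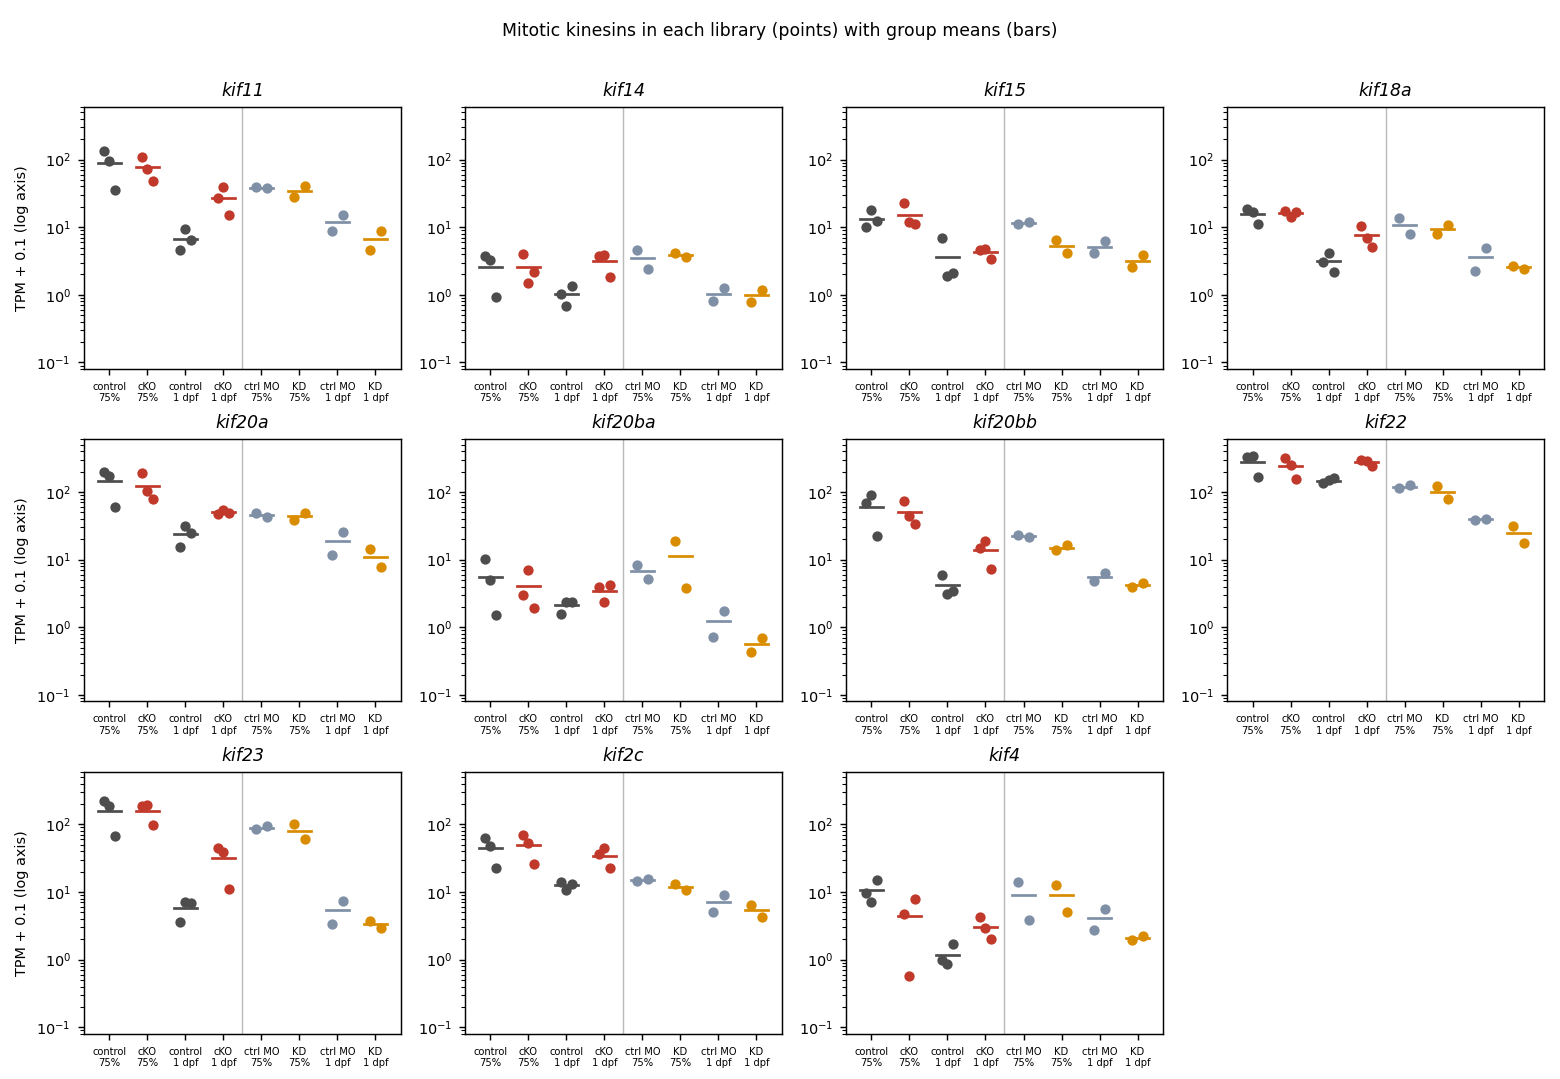
TPM + 0.1 (y axis, log scale) of the 11 mitotic kinesins in the 8 groups (x axis), each point 1 library and each bar a group mean; the grey line parts the knockout experiment from the morpholino experiment. In cKO libraries at 1 dpf kif11 was 15.1 to 39.6 TPM and in control libraries 4.47 to 9.20 TPM.

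At 1 dpf, all 11 mitotic kinesins were higher in cKO than in control PGCs, where 48.3% of all genes tested were higher and 51.7% lower, yet none passed the test. The median mitotic difference was 1.05, against -0.01 for all genes tested, and 9 of the 11 had groups that did not overlap, where 5.66% of all genes tested did so in that direction. Unadjusted p was under 0.05 for 8 of 11 mitotic members, where 3.73% of all genes tested were so in that direction. After adjustment 0 kinesins and 1 gene of 17573 (0.00569%) passed. All 11 also stayed above 0 under each scaling run. The test covered genes with a mean of at least 1 TPM, which were all 11 mitotic, 15 of the 21 transport and 3 of the 4 cilium and signalling rows. Of the mitotic rows kif14, with a mean of 0.923 TPM in control libraries, passed this filter only through its cKO level, which favours a rise.

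The spindle motor kif11 was 4.47, 9.20 and 6.41 TPM in control and 26.99, 39.6 and 15.1 TPM in cKO libraries. Every cKO library lay above every control library, and the log2 difference was 1.82 (SE 0.39, adjusted p = 0.244). The centralspindlin motor kif23 was 3.48, 7.11 and 6.67 TPM in control and 45.3, 38.8 and 10.95 TPM in cKO libraries, a log2 difference of 2.10 (SE 0.50, adjusted p = 0.359). Its groups did not overlap, but cKO replicate 3 lay nearer to the controls than to the other cKO libraries.

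The chromokinesin kif22 had the smallest standard error among the mitotic members. It was 134, 149 and 159 TPM in control and 294, 291 and 242 TPM in cKO libraries, a log2 difference of 0.90 (SE 0.14, adjusted p = 0.145). The cKO libraries were close to each other and all above the controls. The depolymerase kif2c was 14.2, 10.7 and 12.9 TPM in control and 36.7, 44.7 and 22.2 TPM in cKO libraries, a log2 difference of 1.34 (SE 0.29, adjusted p = 0.261). For kif20a the values were 15.3, 31.1 and 24.5 TPM against 46.8, 53.3 and 48.8 TPM, a log2 difference of 1.09 (SE 0.26, adjusted p = 0.363). Neither kif2c nor kif20a overlapped between groups.

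Less abundant members followed in the same direction. The kif20bb row was 5.91, 2.96 and 3.37 TPM in control and 14.5, 18.9 and 7.16 TPM in cKO libraries, a log2 difference of 1.47 (adjusted p = 0.462). The congression motor kif18a was 2.98, 4.09 and 2.04 TPM in control and 10.5, 6.83 and 5.08 TPM in cKO libraries. The midbody motor kif14 was 0.940, 0.585 and 1.24 TPM in control and 3.62, 3.84 and 1.72 TPM in cKO libraries. Both differed by 1.05 without overlap. The chromokinesin kif4, a partner of PRC1 in organizing the central spindle, differed by 0.91, again without overlap and with an unadjusted p of 0.0613. In kif15 and kif20ba the groups overlapped, with log2 differences of 0.34 and 0.53.

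Leaving out cKO replicate 3, which had the lowest mitotic sum of the cKO libraries, brought 2 kinesins past the threshold, kif22 at 0.99 (adjusted p = 0.0452) and kif23 at 2.72 (adjusted p = 0.0354), where 0.256% of all genes tested passed and were higher. With any other single library left out no kinesin passed. By the same-numbered pairs, which deviated together, 10, 10 and 11 of the 11 mitotic rows were higher in the cKO, with medians of 1.32, 1.11 and 0.64.

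Transcripts of other cell types moved with genotype in some libraries. The summed blood markers were 1.14, 4.24 and 0.0451 TPM in control and 92.7, 30.7 and 2.75 TPM in cKO libraries, with gata1a and hbbe2 at 0 in all 6. Muscle markers summed to 52.4, 16.6 and 26.8 TPM in control and 476, 57.1 and 45.8 TPM in cKO libraries. The 6 skin markers summed to 2785, 288 and 269 TPM in control and 3774, 4502 and 249 TPM in cKO libraries. Endoderm, yolk and liver markers summed to 1.36, 2.29 and 2.11 TPM in control and 85.8, 130 and 0 TPM in cKO libraries. In pair 3 skin and endoderm markers were no higher in the cKO, blood and muscle markers were, and the mitotic median of 0.64 was the lowest of the 3 pairs. Nervous system markers summed to 147 to 198 TPM in control and 145 to 247 TPM in cKO libraries. The part of these transcripts in the kinesin levels was not tested.

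Transport kinesins had a median difference near 0 by genotype at 1 dpf. Of the 21 rows, 12 were higher and 9 lower, with a median of 0.11, and the mitotic median minus the transport median was 0.94. The leading rows overlapped: kif3a was 19.7, 31.7 and 44.7 TPM in control and 26.9, 26.6 and 29.2 TPM in cKO libraries. The kinesin-2 subunit kif3b was 21.9, 19.4 and 15.7 TPM in control and 18.7, 21.6 and 21.01 TPM in cKO libraries. For the leading kif5ba row (ENSDARG00000074131) the values were 12.5, 19.5 and 22.2 TPM against 19.3, 12.1 and 16.2 TPM. The groups overlapped in all 3 genes.

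Among transport rows, kif3cb, a kinesin-2 subunit, was listed at 0 in the 3 control libraries and measured 1.89, 3.68 and 0.700 TPM in the cKO (adjusted p = 0.624 by limma). It passed the filter only through its cKO level, which favours a rise. The kif16bb row was lower without overlap, where 5.78% of all genes tested were, at 2.85, 1.60 and 1.83 TPM in control and 1.09, 1.40 and 1.21 TPM in cKO libraries. Of the 4 cilium and signalling members all were lower, with a median of -0.12, and none had groups apart. The leading one, kif7, was 3.40, 5.95 and 3.72 TPM in control and 3.02, 4.07 and 4.14 TPM in cKO libraries. In the other 6 rows the median was 0.08, and levels stayed between 0 and 2.22 TPM.

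**Figure D3:**
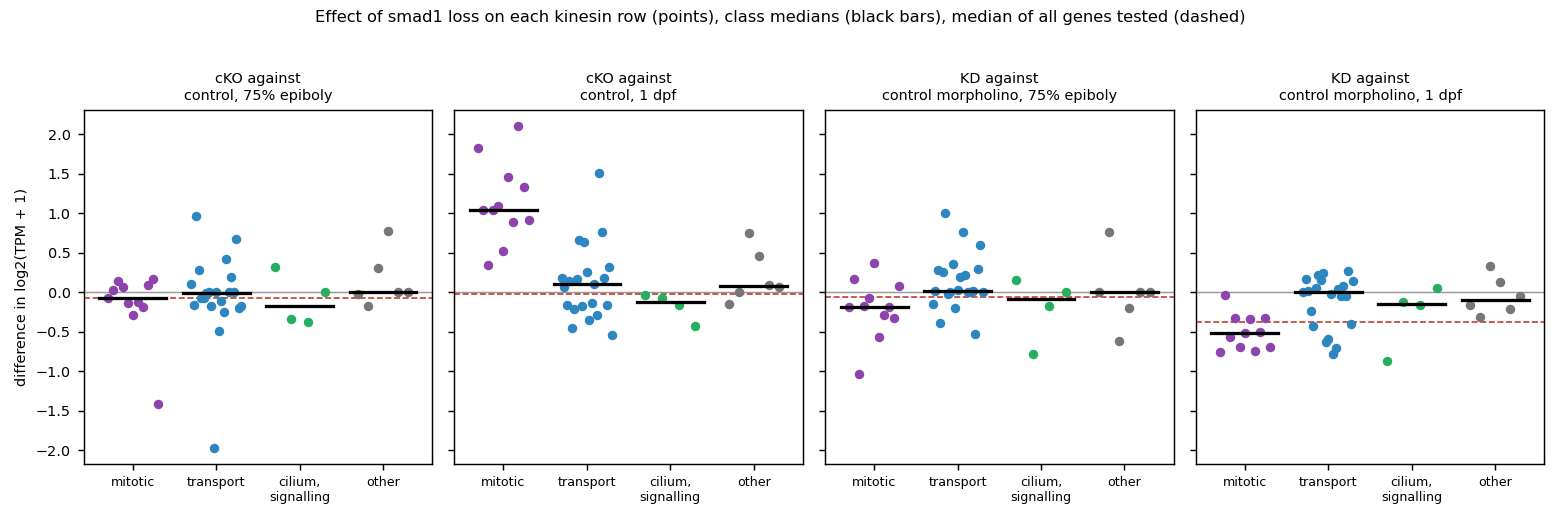
Difference in log2(TPM + 1) (y axis) with smad1 loss for each kinesin row (points) by class (x axis) in the 4 comparisons, with class medians (black bars), 0 (grey line) and the median of all genes tested (dashed line). The mitotic median was 1.05 in the cKO at 1 dpf, -0.07 in the cKO at 75% epiboly, -0.18 in the KD at 75% epiboly and -0.51 in the KD at 1 dpf.

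At 75% epiboly the mitotic kinesins of cKO and control PGCs overlapped throughout. The median was -0.07, as was that of all genes tested, with 5 members higher, 6 lower and 0 of 11 without overlap. Of all genes tested 43.3% were higher and 56.7% lower, and 1.85% and 3.36% were so without overlap. The split rested on single libraries: 10 of 11 were higher without cKO replicate 3, 9 without control replicate 2 and 8 without control replicate 1, but 1 without control replicate 3 or cKO replicate 1. By same-numbered pairs the medians were -0.07, -0.44 and 0.40. No gene of 13006 passed by limma, and 236 had an unadjusted p under 0.05. Levels of kif23 were 225, 189 and 66.2 TPM in control and 185, 191 and 97.7 TPM in cKO libraries. Those of kif22 were 324, 337 and 165 TPM against 322, 248 and 155 TPM. In both, replicate 3 was the lowest library of each group. A single kinesin had an unadjusted p under 0.05, where 1.21% of all genes tested were so and lower. It was the transport motor kif1c, at 2.19, 2.74 and 10.2 TPM in control and 0, 0 and 1.23 TPM in cKO libraries (adjusted p = 1.00). With a mean of 0.409 TPM in the cKO, kif1c passed the filter only through its control level, which favours a fall.

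The difference between stages in the cKO effect was tested as an interaction. All 11 mitotic members had a larger cKO effect at 1 dpf, with a median difference of 1.16 against 0.07 for all genes tested, of which 54.9% were above 0. An unadjusted p under 0.05 was found for 4 of them, kif4, kif11, kif22 and kif23, where 2.67% of all genes tested were so in that direction. That count was 7 with the replicate block, and 6 under quantile normalization or TMM-style scaling. With 1 library left out it was 1 (cKO replicate 2 at 1 dpf, or cKO replicate 3 or control replicate 1 at 75% epiboly) or 2 (replicate 1 of either group at 1 dpf, or control replicate 2 at 75% epiboly). Without control replicate 2 or 3 at 1 dpf or cKO replicate 2 at 75% epiboly it was 4. The count was 5 without cKO replicate 3 at 1 dpf, and at 75% epiboly 7 without cKO replicate 1 and 9 without control replicate 3. The cKO effect was larger at 1 dpf in 10 of the 11 without control replicate 2 or 3 at 1 dpf, or control replicate 2 at 75% epiboly. None passed after adjustment, so a larger effect at 1 dpf was not established for any 1 kinesin. The control libraries at 1 dpf enter both the stage comparison and the cKO comparison. For kif11 the stage difference was -3.39 and the cKO difference 1.82, for kif23 -4.45 and 2.10, and for kif22 -0.83 and 0.90.

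In the KD at 1 dpf all 11 mitotic kinesins were lower than in control-morpholino PGCs, but so were 76.2% of all genes tested, while 23.8% were higher. The median mitotic difference was -0.51, against -0.38 for all genes tested, and 0 genes of 17141 passed by limma. That fit was unpaired, although same-numbered libraries deviated together (correlation 0.601). With the replicate block 0 kinesins passed but many other genes did, in a number given in the last section. The count of 0 genes therefore belongs to the unpaired fit. The groups of 5 of the 11 mitotic rows were lower without overlap, where 34.7% of all genes tested were. At unadjusted p under 0.05 the counts were 0 kinesins and 1697 genes, with 8.80% of those tested passing and lower. Under TMM-style scaling and under quantile normalization 4 of the 11 mitotic rows were higher instead, and under rescaling without abundant features 1 was. Of the 11 rows 9 were tested. Between libraries numbered 1, 4 of the 11 were higher, with a median of -0.25. Between those numbered 2, 0 were, with a median of -0.82. The medians of all genes were -0.07 and -0.69 in the same order.

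The chromokinesin kif22 was 38.8 and 40.2 TPM in control-morpholino and 31.0 and 17.5 TPM in KD libraries, a log2 difference of -0.74 (SE 0.53, adjusted p = 0.722). For kif11 the values were 8.54 and 14.9 TPM against 4.43 and 8.79 TPM, and the groups overlapped. Those of kif23 were 3.32 and 7.30 TPM against 3.63 and 2.88 TPM, also overlapping. The transport median was 0.01, with 11 rows higher and 10 lower. For kif1c the values were 30.7 and 32.4 TPM against 32.4 and 12.4 TPM. Muscle markers summed to 177 and 29.9 TPM in KD and 759 and 592 TPM in control-morpholino libraries. Blood markers summed to 25914 and 56633 TPM in KD libraries and to 15034 and 4672 TPM in control-morpholino libraries, and their part in these results was not tested.

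At 75% epiboly the KD gave a mitotic median of -0.18 against -0.06 for all genes tested, with 8 of 11 members lower and 3 of them without overlap. Of all genes tested 45.2% were higher, 54.8% lower and 14.9% lower without overlap. Without overlap were kif15, at 11.2 and 11.7 TPM in control-morpholino and 6.39 and 4.003 TPM in KD libraries, kif20bb and kif2c. None of the 12968 genes passed by limma, and 164 had an unadjusted p under 0.05. KD replicate 1 stood apart among the transport rows, with a transport sum of 194 TPM against 47.5 to 87.9 TPM in the other 3 libraries.

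**Figure D4:**
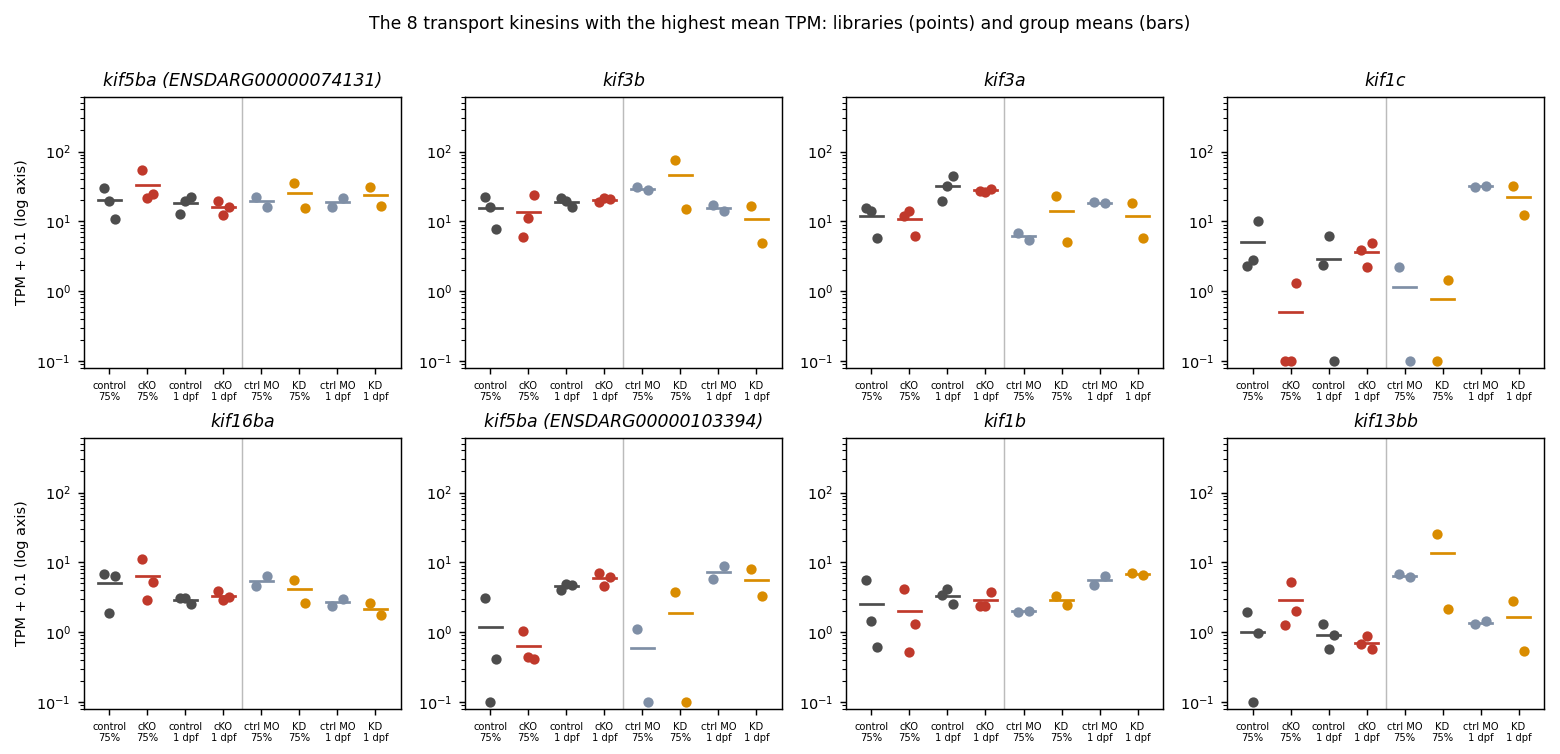
TPM + 0.1 (y axis, log scale) of the 8 transport rows with the highest mean over all libraries, in the 8 groups (x axis), each point 1 library and each bar a group mean. The kif1c row was 30.7 and 32.4 TPM in control-morpholino libraries at 1 dpf and 0 to 6.07 TPM in the control libraries.

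The cKO and KD effects at 1 dpf were compared with a contrast chosen after the data were seen. Each of the 11 mitotic members had a higher effect in the cKO, with a median difference of 1.63 against 0.38 for all genes tested, of which 73.3% were above 0. Unadjusted p was under 0.05 for 8 of them, where 9.17% of all genes tested were so in that direction, and 0 kinesins passed, where 0.178% of genes did. The count of 8 was 5 under quantile normalization or TMM-style scaling and 3 without control-morpholino replicate 2. The smallest adjusted p was that of kif22, at 0.122 for a difference of 1.63 (SE 0.38). The effects were also averaged over both experiments, with more weight on the cKO, which had more libraries. The mitotic median at 1 dpf was then 0.50, with 10 of 11 higher, where 31.6% of all genes tested were, and kif15 at -0.02. None passed, and none had groups apart, where 0.590% of genes were higher without overlap. The average at 75% epiboly had a median of -0.11.

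Genes that work with mitotic kinesins gave the same direction in the cKO at 1 dpf. All 22 listed partners were higher, with a median of 1.23 against -0.01 for all genes tested, of which 48.3% were higher, and 19 had groups that did not overlap, where 5.66% of all genes tested did so. The list was chosen with these data known and is not independent evidence of its direction. In the KD at 1 dpf 20 of the 22 were lower, where 76.2% of all genes tested were, with a median of -0.50 against -0.38. There 10 were lower without overlap, where 34.7% of all genes tested were. At 75% epiboly 17 were lower in the cKO (median -0.17 against -0.07) and 14 in the KD (-0.25 against -0.06). Of all genes tested 56.7% and 54.8% were lower in the same order. The microtubule bundling protein gene nusap1 was 56.3 ± 10.3 TPM in control and 224 ± 68.5 TPM in cKO libraries (SD, n = 3 each), a log2 difference of 1.94 (adjusted p = 0.0984 by limma). For prc1b, which encodes an antiparallel microtubule bundler that kif4 kinesins bind, the means were 12.6 ± 5.14 and 70.6 ± 22.3 TPM (SD, n = 3 each), a log2 difference of 2.41 (adjusted p = 0.0984 by limma). Blocking on replicate number brought prc1b past the threshold (adjusted p = 0.0179 by limma), as the only partner, where 0.0683% of all genes tested passed and were higher. The kinase genes aurka and cdk1 differed by 1.79 and 0.99 (adjusted p = 0.168 and 0.187 by limma). Without cKO replicate 3, 8 of the 22 partners passed, where 0.256% of all genes tested passed and were higher. That library had the lowest mitotic kinesin sum of the cKO libraries, so leaving it out favours a rise. Partner counts with other single libraries left out are not given.

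Subunits and adaptors of kinesin-1 and kinesin-2 lay closer to the median of all genes tested. Of 18 rows 12 were higher and 5 lower in the cKO at 1 dpf, with a median of 0.13. Higher without overlap was 1 row, a share near the 5.66% of all genes tested. The kinesin-binding protein gene kifbp had the smallest p, at 56.5 ± 16.1 TPM in control and 38.4 ± 4.63 TPM in cKO libraries (SD, n = 3 each; adjusted p = 0.812 by limma). Cytoplasmic dynein and dynactin, the motor complex that runs toward microtubule minus ends, had a median of 0.04 over 27 rows, with 15 higher and 12 lower.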

How the data were processed

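RNA of sorted PGCs was amplified as full-length cDNA and made into libraries with a transposase kit, per the labels' protocols. The authors deposited TPM in 4 tables, 1 per stage and experiment. Per the submitters' processing notes, StringTie 2.2.1, STAR 2.7.10b and the build GRCz11 were involved, with no role stated for any of them. Amplicon libraries of the same study were not used here. The depth behind a TPM value is unknown, and its precision is seen only in the spread between libraries.

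The members and gene lists were chosen with earlier results of these data known. Named are all mitotic kinesins and up to 4 genes per partner list by p. Members of the other classes were to be named by an unadjusted p under 0.05 in a comparison. The 3 most abundant of each class per stage were to be named too, but not all such members are. The rest were chosen after their values were seen. Two-sided tests used limma 3.58.1 under R 4.3.3 on log2(TPM + 1) with an intensity trend, for genes with a mean of at least 1 TPM, adjusted by Benjamini-Hochberg over all genes tested. Class medians cover every member, tested or not. Fits were tested on simulated data.

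Same-numbered cKO and control libraries deviated together (correlations of 0.176, 0.196 and 0.417 at 75% epiboly and 0.265, 0.105 and 0.272 at 1 dpf) and were taken as paired. The main tests carried no replicate block, so every p given for the cKO is unpaired unless the block is named. For KD and control-morpholino libraries the correlation was 0.0777 at 75% epiboly and 0.601 at 1 dpf, a single value per stage because there are only 2 pairs. The rule used for pairing asks for at least 3 pairs, so these were not taken as paired. At 1 dpf same-numbered libraries were nonetheless more alike, with correlations of 0.929 and 0.915 against 0.837 and 0.891 across numbers. The unpaired KD tests at 1 dpf leave this likeness out. Other settings tried were no filter, a minimum of 5 TPM, a pseudocount of 0.1, quantile normalization and TMM-style scaling. Rescaling without abundant features, no trend, the replicate block and each library left out were also run. The rescaling left out 44 features, which were mitochondrial or had a name starting with AL935186. Figures used matplotlib 3.10.9 under Python 3.11.15.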

Additional observations from a re-analysis of the deposited data

Results flagged for a closer look

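Of the mitotic kinesins, 3 differed in opposite directions between the experiments at 1 dpf, every cKO library lying above every control and every KD library below every control-morpholino library. Of all genes tested 5.66% were higher without overlap in the cKO and 34.7% lower without overlap in the KD. Of the 11 mitotic rows 9 were so in the cKO and 5 in the KD, where 76.2% of all genes tested were lower. The share of all genes that did both is not given, so the 3 are not shown to exceed it. The log2 difference of kif22 was 0.90 in the cKO and -0.74 in the KD. That of kif4 was 0.91 and -0.70, and that of kif20bb 1.47 and -0.34. The difference between the effects was 1.63 for kif22 (limma adjusted p = 0.122), 1.61 for kif4 (0.396) and 1.81 for kif20bb (0.312), so none passed. The KD value of kif20bb was 0.05 under quantile normalization and 0.07 under TMM-style scaling, a change of sign.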

How the results depend on the processing

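In the cKO at 1 dpf 0 kinesins passed in every setting run, except that leaving out single libraries gave counts from 0 to 2. In the stage comparison of control PGCs the count of kinesins called was 15, and 8 to 14 with single libraries left out; the mitotic minus transport median was -2.43, and -3.29 at a pseudocount of 0.1. In control-morpholino PGCs the count was 12, and 7 at a minimum of 5 TPM (fewer genes tested). Under quantile normalization it was 18, and under TMM-style scaling or rescaling without abundant features 17. The share of all genes called under these scalings is not given. The class difference in control-morpholino PGCs was -2.08, -3.10 at a pseudocount of 0.1 and -2.47 to -1.62 with single libraries left out. In the KD at 1 dpf the class difference was -0.52, and -0.74 to -0.22 with single libraries left out. For the cKO effect minus the KD effect the count was 0 to 2 with single libraries left out, the 2 being kif22 and kif3b without KD replicate 1, where 1411 genes passed against 33. The pseudocount acts most on rows near 0; other causes were not tested. With the replicate block 0 kinesins passed in any comparison so fitted, kif22 in the cKO at 1 dpf having an adjusted p of 0.0770 by limma against 0.145, while the count over all genes there was 14 against 1. In the KD, not taken as paired, it was 27 at 75% epiboly and 866 at 1 dpf against 0; at 1 dpf same-numbered libraries deviated together (correlation 0.601), and germ-cell marker sums were 5172 and 4746 TPM for replicate 1 and 1488 and 1026 TPM for replicate 2. Unknown depth and 2 or 3 libraries per group limit what could pass.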
